A study of Homo sapiens with 68 samples.

Results

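The sites described here are places in RNA where peaks of RBFOX2 and hnRNPA1 overlapped and where neither hnRNP C (hnRNPc in the group names) nor hnRNPI had a peak. They are peaks of RBFOX2_50k_noPAGE replicate 1 that a peak of its replicate 2 and of both hnRNPA1_50k_noPAGE libraries overlapped by at least 1 nt on the same strand, with no peak of the hnRNPc_50k_noPAGE or hnRNPI_50k_noPAGE libraries over them. The sites were thus chosen by the peak calls of these 8 libraries, and their values there are a description. There were 6204 such shared sites. They made up 8.07% of the 76910 RBFOX2 peaks found in both replicates (reproducible RBFOX2 sites), 3.94% of the 157375 peaks of RBFOX2_50k_noPAGE replicate 1, and a small share of the 15800601 peaks in the 68 lists of the series. Of the reproducible RBFOX2 sites, 15937 were overlapped in both hnRNPA1 libraries, and the shared sites were 38.9% of these.

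The libraries were made with TLC-CLIP, in which cells are irradiated with ultraviolet light to bind proteins to the RNA they touch, 1 protein is immunoprecipitated, and the attached RNA fragments are sequenced. The cells were HEK293T, an established line from human embryonic kidney, and each group had 2 replicates. The 4 antibodies were against hnRNPA1, hnRNP C, hnRNPI and RBFOX2 (given by its older name RBM9), and the study asked how the gel step, RNase amount, adapter removal, cell number and crosslinking affect the profiles. Nothing in the labels says that replicates came from separate cultures, so p-values measure only the spread between these libraries.

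The 50k_noPAGE, 50k_noPAGE_RecJ, 50k_lowRNase, noUV and noUV_noPAGE groups are labelled with 50000 cells and 0.005 U of RNase. PAGE is the gel separation after which the protein-RNA complexes are cut out, and noPAGE libraries left it out. RecJ marks an added exonuclease digestion that removes unused adapter. The lowRNase and noUV groups had the gel step, as did hnRNPA1_50k_mediumRNase with 0.025 U of RNase, RBFOX2_10k with 10000 cells and 0.001 U, and RBFOX2_1k with 1000 cells and 0.0001 U. The noUV groups are known to be without crosslinking from their titles and the series description, since every sample carries the same protocol text with crosslinking in it. The noUV, 10k and 1k libraries have accessions in a run separate from the other 50k libraries, so if that run is a preparation batch, batch and these groups cannot be told apart. The sequencing depth of the libraries is unknown. The list sizes differed by protein: in the 8 libraries of the rule they ranged from 157375 and 161434 peaks for RBFOX2 to 499537 and 523402 for hnRNPA1. hnRNPc_50k_lowRNase replicate 1 stood apart with 3268 peaks, against 214849 in replicate 2, and the result that uses it is also given without it.

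RBFOX2 is a splicing regulator whose RNA recognition motif binds GCAUG elements, mostly in introns near alternative exons, where its position relative to the exon is tied to inclusion or skipping. hnRNPA1 is an abundant nuclear RNA-binding protein that prefers UAGG-like elements and is best known for repressing exons and for packaging nascent transcripts. hnRNP C binds runs of uridine and hnRNPI, the polypyrimidine tract-binding protein, binds pyrimidine-rich tracts. Whether the shared sites hold these elements was not analysed here, because no hg19 sequence was used. The files identify genes by Ensembl number only and do not pair them with names, so sites are given by hg19 position and strand. Exon or intron location was not analysed here for the same reason.

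The shared sites were spread over many genes rather than gathered in a few. After sites closer than 30 nt on a strand were joined, they formed 5363 clusters, of which 4713 held a single site, in 3355 of the 10991 genes with a reproducible RBFOX2 site. There were 2062 genes with 1 cluster, 750 with 2, 418 with 3 to 4 and 125 with 5 or more. The 6204 sites held 6009 distinct intervals, since 175 intervals were listed under more than 1 gene. Some members of the set therefore repeat the same place. The sites lay on 24 chromosomes, with 3206 on the plus strand and 6 on the mitochondrial chromosome.

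ENSG00000145147 held the most clusters, 19, each of 1 site, between chr4:20276573 and chr4:20524749 on the plus strand. They were 13.7% of its 139 reproducible RBFOX2 sites, and RBFOX2_50k_noPAGE replicate 1 had 250 peaks in this gene against 526 for hnRNPA1, 497 for hnRNP C and 374 for hnRNPI in the first replicates without PAGE. The lowest read number among the 4 libraries that define a site had a median of 18 over the 19 sites and a highest value of 57. ENSG00000104529, on the minus strand of chromosome 8, held 16 sites in 14 clusters within chr8:144670516-144678991, 24.2% of its 66 reproducible RBFOX2 sites, in a stretch of 17.7 kb over which any list had peaks of the gene. In this gene RBFOX2_50k_noPAGE replicate 1 had more peaks (75) than hnRNPA1 (45), hnRNP C (24) or hnRNPI (12), and the median of the lowest read number was 60. The remaining 8 of the 10 genes with the most clusters had 10 to 14 clusters each. A gene on chromosome 10 with 12 shared sites between chr10:81449080 and chr10:81474713 had the highest share of them among the 10, 40.0% of its 30 reproducible RBFOX2 sites, with 1 RBFOX2-only site. Among these 10, the 2 genes on the minus strand near the end of chromosome 12 lie over each other, and their counts are not independent.

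Positions along genes were close to those of other RBFOX2 sites. Measured over the stretch in which any of the 68 lists had peaks of a gene, which stands in for the gene's length, the shared sites lay at a median of 48.7% from the 5′ end. RBFOX2-only sites (32037 reproducible RBFOX2 sites with no peak of any other protein in the 50k_noPAGE libraries) lay at 55.5%, and all reproducible RBFOX2 sites at 52.3%. The first 10% of the stretch held 16.5% of the shared sites and 15.8% of all reproducible RBFOX2 sites. The last 10% held 12.7% and 14.0%. No test was run on these positions, because sites of a gene are not independent.

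The read number of a peak, the last number in its deposited name, was similar for both proteins, and is unscaled. In RBFOX2_50k_noPAGE replicate 1 it ranged from 4 to 1477 at the shared sites, with a median of 21 and quartiles of 11 and 48. In replicate 2 it had a median of 22 and a highest value of 4143. The overlapping hnRNPA1 peaks had a median of 23 in each replicate and highest values of 2172 and 2246. Within their own lists these were above-average peaks, at a median percentile of 72.2 and 73.0 for RBFOX2 and of 83.8 and 82.9 for hnRNPA1. The RBFOX2 percentiles were close to the 71.1 and 71.9 of all reproducible RBFOX2 sites. Replicates of a protein ordered the sites in much the same way, while the 2 proteins did not. Spearman's rho over the 6204 sites was 0.902 between the RBFOX2 replicates and 0.841 between the hnRNPA1 replicates, but 0.173 to 0.189 between the proteins. Neighbouring sites can share reads, and each library's depth is common to all its points. The mean hnRNPA1 read number over the mean RBFOX2 read number had a median log2 of 0.14 with quartiles of -1.10 and 1.14, and hnRNPA1 had the higher number at 3285 sites (52.9%).

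**Figure D1:**
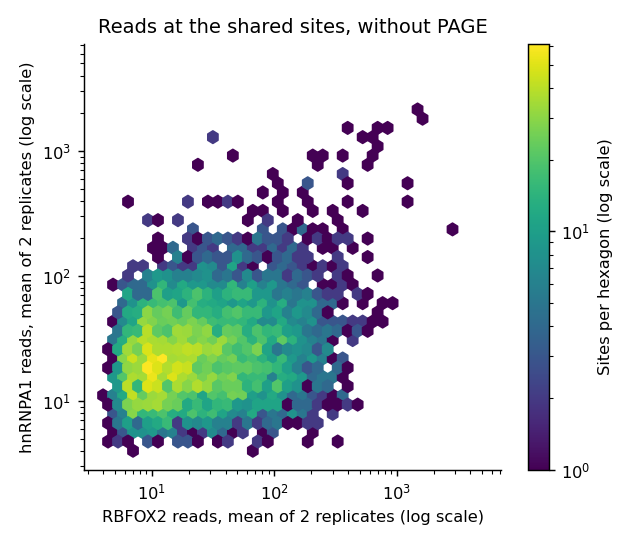
Mean read number of 2 replicates at each of the 6204 shared sites, RBFOX2 on the horizontal and hnRNPA1 on the vertical axis, both logarithmic, for the libraries without PAGE; the colour of a hexagon gives its number of sites. The cloud is broad with little slope (rho of 0.173 to 0.189 between libraries of the 2 proteins), and a few sites are high for both.

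The shared sites were wider than other RBFOX2 sites. Their median width was 77 nt with quartiles of 54 and 104 nt, against 62 nt for RBFOX2-only sites, 68 nt for all reproducible RBFOX2 sites and 56 nt for the 2272 sites where all 4 proteins had peaks in both replicates. Width can be part of what the rule selects, which was not tested. Sites found in both hnRNPA1 libraries differed along the number of hnRNP C and hnRNPI libraries with a peak over them. There were 6204 with none, 2891 with 1, 3215 with 2, 1355 with 3 and 2272 with all 4. The median RBFOX2 read number in replicate 1 was 21 with none, 20 with 1, 26 with 2, 32 with 3 and 102 with all 4, and the median hnRNPA1 read number was 23, 27, 33, 37 and 58.5 in the same order. Sites with 1 such library, just outside the rule, were thus near those inside it in RBFOX2 reads and somewhat higher in hnRNPA1 reads. The absence of an hnRNP C or hnRNPI peak was local. Of the shared sites, 213 (3.43%) had such a peak less than 10 nt away, 942 (15.2%) less than 50 nt and 5166 (83.3%) less than 1000 nt. These were not counted for other RBFOX2 sites, so whether the shares are particular to the shared sites is not known.

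The centres of the hnRNPA1 peaks were scattered more widely around the site centre than those of the second RBFOX2 replicate, by a few nt. Centres of RBFOX2_50k_noPAGE replicate 2 peaks lay at a median of 14 nt from the site centre, and 41.3% were within 10 nt. Centres of hnRNPA1 peaks lay at a median of 20 nt in replicate 1 and 21 nt in replicate 2, with 30.3% and 28.9% within 10 nt. In the RecJ libraries, which the rule did not use, the medians were 13.5 nt in both RBFOX2 replicates and 20 and 19.5 nt for hnRNPA1. The lowRNase libraries gave 15 nt in both RBFOX2 replicates and 22 and 22.5 nt for hnRNPA1. Every hnRNPA1 library of these 3 crosslinked preparations thus had a larger median than every RBFOX2 library of them. In the noUV libraries this order was not seen, but each median covers only the sites that the library overlapped. Those were 1025 and 839 sites for noUV_RBFOX2 and 2747 and 2704 for noUV_hnRNPA1, against 6204 in the 50k_noPAGE libraries. Whether the order would hold at the same sites was not tested. The medians were 18.5 and 19 nt for noUV_RBFOX2 and 17.5 and 18.5 nt for noUV_hnRNPA1, and 18 and 16.5 nt for noUV_noPAGE_RBFOX2 and 16.5 and 18 nt for noUV_noPAGE_hnRNPA1. At the sites of all 4 proteins the medians were smaller, 4.5 nt for RBFOX2 replicate 2 and 10 nt in each hnRNPA1 replicate. Overlap and peak width bound these distances, and the site centre is that of an RBFOX2 peak for both proteins, so no test was run.

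The hnRNPA1 peak had no fixed side. In both replicates its centre was within 10 nt of the site centre at 919 sites (14.8%), more than 10 nt to the 3′ side at 1507 (24.3%) and more than 10 nt to the 5′ side at 1240 (20.0%). The remaining 2538 (40.9%) were not placed alike by the 2 replicates. The median signed distance, positive towards the 3′ side, was 1.5 and 2 nt without PAGE and 3 and 3.5 nt in the lowRNase libraries. In the noUV_noPAGE libraries it was negative, at -6 and -6.5 nt for RBFOX2 and -4 and -3.5 nt for hnRNPA1.

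**Figure D2:**
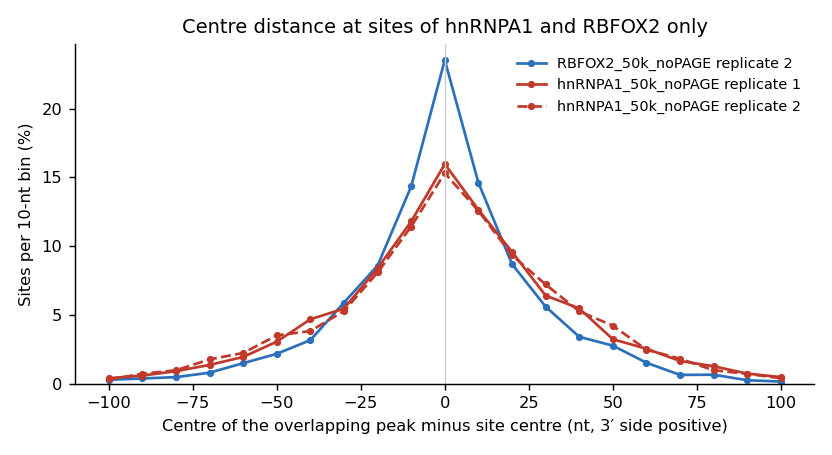
Percent of the 6204 shared sites in 10-nt bins of the distance along the strand from the site centre to the centre of the overlapping peak of 3 libraries without PAGE; the 3′ side is positive. RBFOX2 replicate 2 has a sharper peak at 0 than the 2 hnRNPA1 replicates, which lie over each other.

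The RecJ and lowRNase libraries are independent of the rule and show how often the shared class was found again. hnRNPA1_50k_noPAGE_RecJ libraries had peaks over 78.6% and 79.0% of the shared sites, and RBFOX2_50k_noPAGE_RecJ libraries over 76.8% and 77.2%. hnRNPc_50k_noPAGE_RecJ libraries had peaks over 6.16% and 8.54%, and hnRNPI_50k_noPAGE_RecJ libraries over 6.46% and 6.87%. The groups did not overlap. Both hnRNPA1 replicates had a peak over 4228 shared sites (68.1%), against 20.3% of all reproducible RBFOX2 sites, and both RBFOX2 replicates over 4149 (66.9%), against 62.7%. For hnRNP C this was 107 sites (1.72%, against 11.1%) and for hnRNPI 99 (1.60%, against 16.0%). The hnRNPA1 and RBFOX2 libraries exceeded those of hnRNP C and hnRNPI by 70.9 percentage points (exact two-sided permutation test, 4 against 4 libraries, p = 0.0286, the smallest possible, Benjamini-Hochberg adjusted over 6 tests to 0.0429). The test treats the 2 libraries of an antibody as separate. The sites were chosen for this pattern in other libraries of the same 4 antibodies, so its direction was set by the choice, and the percents are the result.

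With the gel step the order was the same. RBFOX2_50k_lowRNase libraries overlapped 78.2% ± 1.84 (SD, n = 2) of the shared sites and hnRNPA1_50k_lowRNase libraries 69.7% ± 0.182. hnRNPI_50k_lowRNase libraries overlapped 12.6% ± 0.422, and hnRNPc_50k_lowRNase libraries 0.161% and 12.2%, the lower value being the library with few peaks. Over all reproducible RBFOX2 sites the hnRNP C values were 1.01% and 11.8%. The difference was 64.5 percentage points (exact two-sided permutation test, p = 0.0286, the smallest possible, adjusted p = 0.0429), in the direction that the choice of sites had set, and over the 8 ways of leaving out a library it stayed between 61.5 and 66.0, the former without the hnRNP C library of few peaks. Both lowRNase replicates had a peak over 3671 shared sites (59.2%, against 16.6% of all reproducible RBFOX2 sites) for hnRNPA1, 4359 (70.3%, against 55.9%) for RBFOX2 and 237 (3.82%, against 11.8%) for hnRNPI. hnRNPA1_50k_mediumRNase libraries overlapped 62.2% ± 1.62, and both replicates had a peak over 3280 (52.9%, against 15.9%). hnRNPc_50k_mediumRNase libraries overlapped 13.9% ± 5.57 of the shared sites and 12.8% ± 2.26 of all reproducible RBFOX2 sites. Replicate 1 was lower at the shared sites (9.93% against 11.2%) and replicate 2 higher (17.8% against 14.4%).

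Fewer sites met the whole rule again. In the RecJ libraries 2216 shared sites (35.7%) had peaks in both hnRNPA1 and both RBFOX2 libraries and in none of the others, against 5.38% of all reproducible RBFOX2 sites. In the lowRNase libraries 1731 (27.9%) did, against 5.05%. All 8 RecJ and lowRNase libraries of hnRNPA1 and RBFOX2 had a peak over 1838 shared sites (29.6%), against 8.04% of all reproducible RBFOX2 sites.

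**Figure D3:**
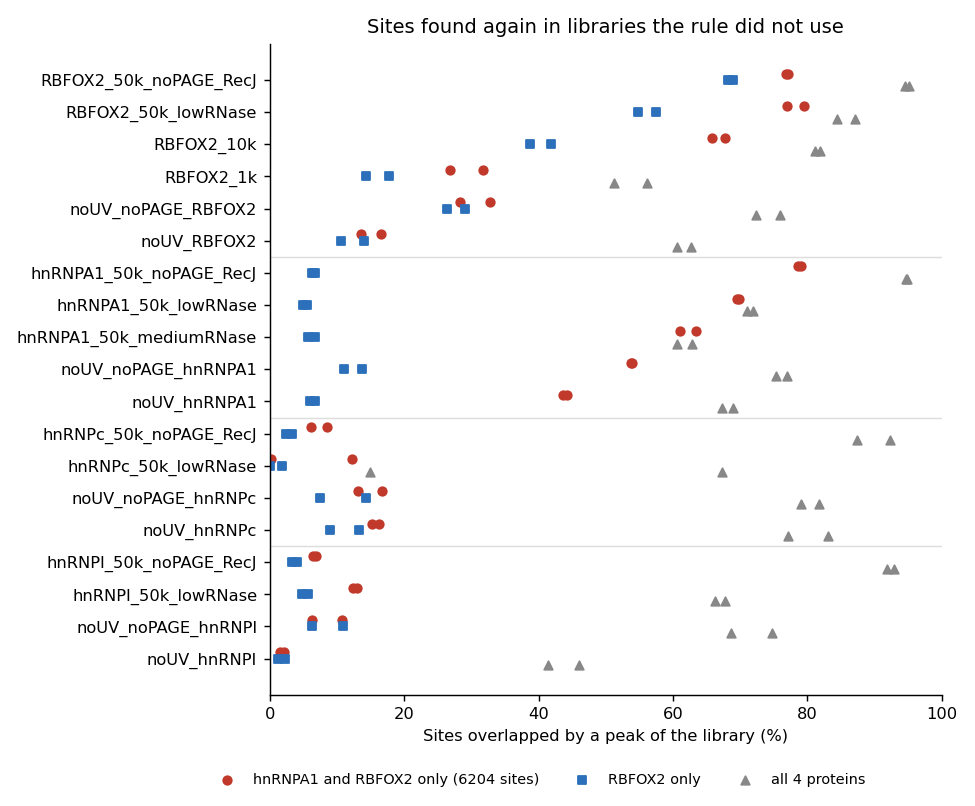
Percent of sites overlapped by a peak of each library not used to choose them, by library group (2 points per class and group, 1 for each replicate), for the 6204 shared sites, 32037 RBFOX2-only sites and 2272 sites of all 4 proteins. The shared sites lie near the RBFOX2-only sites in the noUV libraries of RBFOX2 and far above them in every hnRNPA1 group.

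RBFOX2 peaks at the shared sites were also found from fewer cells. RBFOX2_10k libraries overlapped 65.8% and 67.7% of the shared sites and RBFOX2_1k libraries 26.8% and 31.8%. Both replicates had a peak over 3444 shared sites (55.5%, against 40.6% of all reproducible RBFOX2 sites) at 10000 cells and over 969 (15.6%, against 12.2%) at 1000. RBFOX2-only sites were overlapped less in each of these libraries, 40.3% ± 2.22 and 16.0% ± 2.40 (SD, n = 2). RNase amount fell with cell number, and 2 against 2 libraries cannot reach an exact p of 0.05, so no test was run. Values are also given for sites of 1 read class and width. Among sites with 20 to 49 reads in RBFOX2_50k_noPAGE replicate 1, RBFOX2_10k libraries overlapped 73.9% ± 1.66 of 1751 shared sites and 40.3% ± 2.89 of 9242 RBFOX2-only sites. At 4 to 9 reads the RBFOX2_1k values were close, 8.80% ± 2.26 and 7.58% ± 1.13. Among sites of 20 to 49 reads and 60 to 99 nt, the RBFOX2_10k values were 74.0% ± 3.52 over 642 shared sites and 45.7% ± 2.52 over 3429 RBFOX2-only sites, and those of RBFOX2_50k_lowRNase 84.9% ± 0.881 and 62.9% ± 1.34. In the RBFOX2 RecJ libraries, made without the gel, the values for these sites were closer, 89.3% ± 0.881 and 81.7% ± 0.433. These classes were picked with the data in view, and the part of reads and width in the difference was not tested.

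Without crosslinking, hnRNPA1 and RBFOX2 differed at the shared sites. noUV_hnRNPA1 libraries had peaks over 43.6% and 44.3% of them, where the crosslinked hnRNPA1_50k_lowRNase libraries had peaks over 69.6% and 69.8%. noUV_RBFOX2 libraries had peaks over 13.5% and 16.5%, where the RBFOX2_50k_lowRNase libraries had 76.9% and 79.5%. Both noUV_hnRNPA1 replicates had a peak over 2176 shared sites (35.1%, against 12.9% of all reproducible RBFOX2 sites), and both noUV_RBFOX2 replicates over 411 (6.62%, against 8.94%). The difference was thus -25.8 percentage points for hnRNPA1 and -63.2 for RBFOX2, and crosslinked and noUV libraries did not overlap for either protein. Over all reproducible RBFOX2 sites the differences were -4.88 points for hnRNPA1 and -49.6 for RBFOX2. For RBFOX2 the noUV percent was 0.192 of the crosslinked one at the shared sites and 0.245 at all reproducible RBFOX2 sites. The fall in RBFOX2 overlap was thus not confined to the shared sites. The number of peaks listed also fell without crosslinking. The noUV_RBFOX2 lists held 30170 and 22911 peaks and the RBFOX2_50k_lowRNase lists 260610 and 208407, while the noUV_hnRNPA1 lists held 163669 and 146915 and the hnRNPA1_50k_lowRNase lists 515303 and 501950. The part of list size in the fall, and the difference in fall between the proteins, were not tested. The mean difference over the proteins was -44.5 percentage points (exact two-sided permutation test within proteins, p = 0.0556, which is the smallest this design allows, adjusted p = 0.0556). It therefore cannot pass 0.05. The rule required crosslinked peaks of both proteins at the shared sites, so the choice of sites favoured this direction. At RBFOX2-only sites, chosen to have no crosslinked hnRNPA1 peak, the differences were 1.14 points for hnRNPA1 and -43.9 for RBFOX2.

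The same order was seen without PAGE. noUV_noPAGE_hnRNPA1 libraries overlapped 53.8% of the shared sites in each replicate, against 78.8% ± 0.285 (SD, n = 2) for the RecJ libraries. noUV_noPAGE_RBFOX2 libraries overlapped 28.3% and 32.8%, against 77.0% ± 0.251. Both replicates had a peak over 2816 shared sites (45.4%, against 18.2% of all reproducible RBFOX2 sites) for hnRNPA1 and over 1257 (20.3%, against 21.0%) for RBFOX2. The mean difference was -35.7 percentage points (exact two-sided permutation test, p = 0.0556, again the smallest possible, adjusted p = 0.0556), with -46.5 points for RBFOX2 and less for hnRNPA1. Over all reproducible RBFOX2 sites the differences were -43.6 points for RBFOX2 and -3.72 for hnRNPA1. Here too the choice of sites favoured a fall, and at RBFOX2-only sites the differences were 5.81 points for hnRNPA1 and -40.8 for RBFOX2. The crosslinked libraries of this comparison also had the RecJ digestion, which cannot be told apart from crosslinking here.

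Each shared site was found in between 0 and 8 of the 8 noUV libraries of hnRNPA1 and RBFOX2. None of the 8 had a peak over 1440 shared sites (23.2%), against 44.5% of all reproducible RBFOX2 sites, and all 8 had one over 141 (2.27%), against 3.05%. A second high point of the distribution, at 4 libraries, held 1146 sites. Sites at 4 libraries were not counted for other RBFOX2 sites, so whether this point is particular to the shared sites is not known. None of the 4 noUV libraries of RBFOX2 had a peak over 3361 shared sites (54.2%), close to the 55.9% of all reproducible RBFOX2 sites. All 4 had one over 319 (5.14%, against 7.69%). None of the 4 of hnRNPA1 had one over 2002 (32.3%), against 66.0%, and all 4 had one over 1948 (31.4%), against 11.2%. Peaks in 1 or more noUV hnRNPA1 libraries and in no noUV RBFOX2 library lay over 1921 shared sites (31.0%, against 11.4%). The reverse held for 562 (9.06%, against 21.4%). Both all 8 RecJ and lowRNase libraries and none of the 8 noUV libraries of the 2 proteins marked 271 shared sites (4.37%), against 0.976% of all reproducible RBFOX2 sites.

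**Figure D4:**
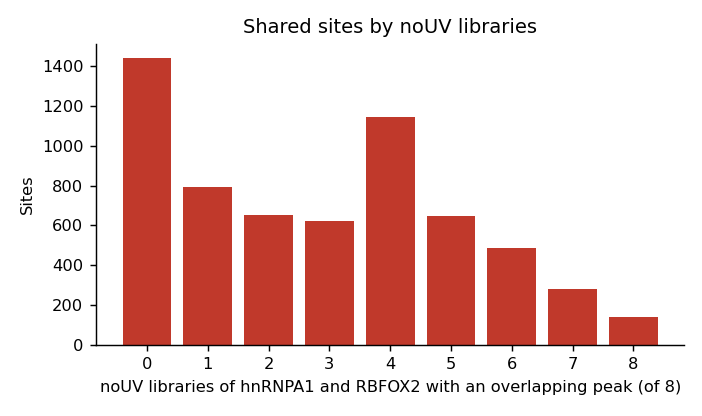
Number of the 6204 shared sites (vertical axis) by how many of the 8 noUV libraries of hnRNPA1 and RBFOX2 had a peak over them (horizontal axis). The bar at 0 libraries (1440 sites) and that at 4 libraries (1146 sites) are the tallest. The distribution was not made for other RBFOX2 sites.

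Compared with RBFOX2-only sites, the shared sites were overlapped more in all 8 noUV libraries, by 21.2 percentage points on average (exact two-sided sign-flip permutation test over libraries, p = 0.00781, the smallest possible, adjusted p = 0.0234). Nearly all of this difference came from the hnRNPA1 libraries, where it was 39.5 points. In the 4 RBFOX2 libraries it was 2.78 points, between 1.92 and 3.71 (exact p = 0.125, the smallest that 4 libraries allow). At 10 to 19 reads noUV_noPAGE_RBFOX2 libraries overlapped 17.8% ± 3.18 of the shared and 19.9% ± 2.02 of the RBFOX2-only sites. In the other read classes the shared sites had the higher mean in these libraries. At 20 to 49 reads the mean over the 8 libraries was 21.2 points, but not all agreed in sign (exact two-sided sign-flip permutation test, p = 0.0312). Since the rule required crosslinked hnRNPA1 peaks at the shared sites and barred them at RBFOX2-only sites, the hnRNPA1 part is a comparison of sites with and without an hnRNPA1 peak. Against the sites of all 4 proteins, the shared sites were overlapped less in all 8 libraries, by a mean of -34.2 points (exact two-sided sign-flip permutation test, p = 0.00781, adjusted p = 0.0234). This was -45.1 points in the RBFOX2 and -23.3 points in the hnRNPA1 libraries. Sites of all 4 proteins had more reads, and among sites of 20 to 49 reads the difference was -19.98 points.

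How often a shared site had a noUV RBFOX2 peak went with its RBFOX2 reads, and there it resembled RBFOX2-only sites. noUV_RBFOX2 libraries overlapped 2.52% ± 0.509 of shared sites with 4 to 9 reads, 5.89% ± 1.05 of those with 10 to 19, 15.5% ± 1.82 of those with 20 to 49 and 35.0% ± 4.99 of those with 50 or more (SD, n = 2). At RBFOX2-only sites the values were 2.29% ± 0.517, 5.84% ± 1.40, 14.7% ± 3.73 and 28.5% ± 4.07. In the 3 lower read classes the 2 classes of sites had close values. Both were read in the same 2 libraries, so the SD does not measure the spread of their difference, which was not tested. noUV_hnRNPA1 libraries, by contrast, overlapped 42.2% ± 0.226, 45.1% ± 0.880, 47.7% ± 0.888 and 39.7% ± 0.187 of the shared sites in the same order, with no steady rise along RBFOX2 reads. When the shared sites were put into 4 equal groups by their lowest read number over both proteins, noUV_hnRNPA1 overlap was 37.6% ± 0.729 in the weakest group and 54.3% ± 0.912 in the strongest. For noUV_RBFOX2 these were 7.61% ± 1.09 and 26.0% ± 3.92.

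**Figure D5:**
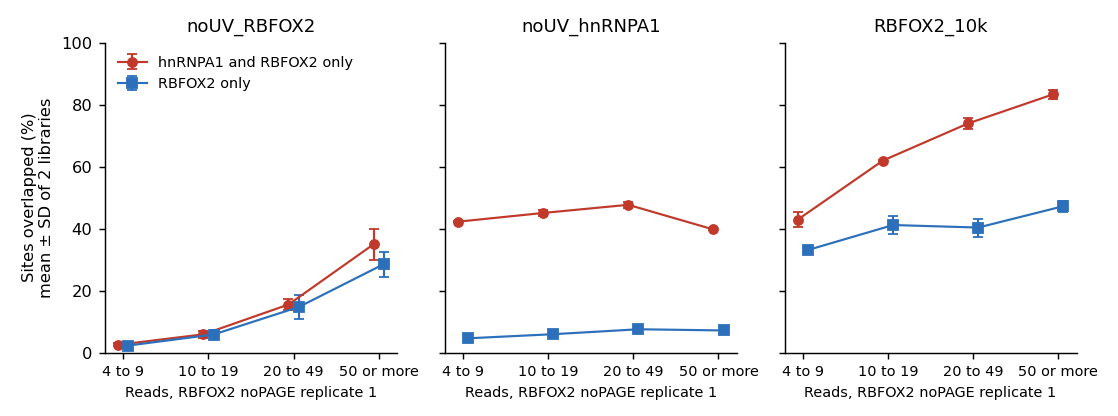
Percent of sites overlapped (mean ± SD of 2 libraries) against the site's read number in RBFOX2_50k_noPAGE replicate 1, for noUV_RBFOX2, noUV_hnRNPA1 and RBFOX2_10k libraries, at shared sites (circles) and RBFOX2-only sites (squares). The 2 lines run together for noUV_RBFOX2 up to 49 reads and stand apart for noUV_hnRNPA1 and RBFOX2_10k in every read class.

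hnRNP C and hnRNPI, whose crosslinked peaks the rule barred, had noUV peaks over fewer of the shared sites than hnRNPA1. noUV_hnRNPc libraries overlapped 15.2% and 16.2% of the shared sites. noUV_noPAGE_hnRNPc libraries overlapped 13.1% and 16.7%, more than the 6.16% and 8.54% of the crosslinked RecJ libraries, also made without the gel. With the gel, crosslinked hnRNP C libraries of 50000 cells had 0.161% and 12.2% (lowRNase) and 9.93% and 17.8% (mediumRNase). noUV_hnRNPI libraries overlapped 1.52% and 2.18%, and noUV_noPAGE_hnRNPI libraries 6.25% and 10.7%. With PAGE the noUV hnRNP C values were near the 13.5% and 16.5% of noUV_RBFOX2. Without PAGE they were below the 28.3% and 32.8% of noUV_noPAGE_RBFOX2. The lists differed in size, with 299616 and 299307 peaks for noUV_hnRNPc and 18690 and 36809 for noUV_hnRNPI. Both noUV replicates of hnRNP C had a peak over 447 shared sites (7.21%, against 13.3% of all reproducible RBFOX2 sites) with PAGE and 408 (6.58%, against 13.0%) without. For hnRNPI this was 12 (0.193%, against 2.33%) and 211 (3.40%, against 9.25%). Over all 8 noUV libraries of hnRNP C and hnRNPI, 3730 shared sites (60.1%) had no peak, against 51.6% of all reproducible RBFOX2 sites.

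The strongest shared sites showed several patterns. They are given by the read numbers of the overlapping peaks in replicates 1 and 2, where 0 means that no overlapping peak was listed. The site with the highest lower limit over the 4 defining libraries was chrX:73070923-73070956 on the minus strand. It had 1477 and 1754 reads for RBFOX2 and 2158 and 1517 for hnRNPA1 without PAGE, and 317 and 225 reads in noUV_RBFOX2 and 559 and 432 in noUV_hnRNPA1. No hnRNPc_50k_noPAGE peak lay over it, but hnRNP C peaks of other crosslinked libraries did, with 854 reads in RecJ replicate 2 and 102 and 754 in the lowRNase libraries. Without crosslinking, noUV_hnRNPc peaks of 2364 and 2381 reads and noUV_noPAGE_hnRNPc peaks of 1849 and 2179 lay over it. At this site the hnRNP C libraries without crosslinking had the largest noUV read numbers.

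ENSG00000251562, on the plus strand of chromosome 11, had 55 reproducible RBFOX2 sites, of which 4 were shared sites, and neighbours among them differed without crosslinking. The site chr11:65269323-65269347 had 1110 and 2137 reads for RBFOX2 and 2172 and 2246 for hnRNPA1 without PAGE. In the noUV libraries it kept 129 and 110 reads for RBFOX2 and 703 and 770 for hnRNPA1, so all 8 libraries had a peak. The site chr11:65270672-65270718 in the same gene had 655 and 701 reads for RBFOX2 and 1037 and 990 for hnRNPA1 without PAGE. RecJ libraries gave it 531 and 638 reads for RBFOX2 and 816 and 848 for hnRNPA1. None of the 8 noUV libraries of these proteins had a peak over this second site, while replicate 1 of noUV_hnRNPc had one of 513 reads and replicate 2 none. It was the strongest shared site with no such noUV peak. The 5 strongest sites of that kind were picked out after the data had been seen.

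A similar pair lay in ENSG00000169045, on the minus strand of chromosome 5, with 6 shared sites in 4 clusters among 43 reproducible RBFOX2 sites. At chr5:179047196-179047388 the RBFOX2 reads were 669 and 521 and the hnRNPA1 reads 856 and 987 without PAGE. noUV_hnRNPA1 libraries had 143 and 149 reads there and noUV_RBFOX2 libraries had no peak, while noUV_noPAGE_RBFOX2 libraries had peaks of 21 and 27 reads. At chr5:179047814-179047916, with 216 and 271 reads for RBFOX2 and 949 and 840 for hnRNPA1, all 8 noUV libraries had peaks, of 14 and 15 reads in noUV_RBFOX2 and 91 and 67 in noUV_hnRNPA1. At chr5:179046770-179046857, with 211 and 611 reads for RBFOX2 and 574 and 481 for hnRNPA1, none did, and neither did any lowRNase library of the 2 proteins. The 3 sites are listed under the same gene.

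The balance of the proteins also varied among strong sites. At chr7:98479386-98479393 on the plus strand, a peak only 8 nt wide, RBFOX2 had 1401 and 4143 reads without PAGE, 3980 and 4160 with RecJ and 3949 and 3548 in the lowRNase libraries. hnRNPA1 had 223 and 210, 284 and 222, and 157 and 170 in the same order. All 8 noUV libraries had a peak there, of 76 and 64 reads in noUV_RBFOX2 and 31 and 85 in noUV_hnRNPA1. RBFOX2 was thus above hnRNPA1 in each of the 3 crosslinked preparations, and this order did not hold in the noUV_noPAGE libraries, with 62 and 71 reads for RBFOX2 and 266 and 179 for hnRNPA1. At chr22:20073968-20073986 on the plus strand the numbers were nearer, 223 and 450 reads for RBFOX2 and 195 and 204 for hnRNPA1 without PAGE. There noUV_noPAGE_RBFOX2 libraries had 180 and 264 reads and noUV_noPAGE_hnRNPA1 libraries 74 and 87.

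At chr11:65190451-65190535 on the plus strand hnRNPA1 was above RBFOX2, with 1018 and 1785 reads against 615 and 620 without PAGE and 2384 and 965 against 482 and 584 with RecJ. In the lowRNase libraries the order was turned, with 676 and 497 reads for hnRNPA1 and 948 and 691 for RBFOX2. noUV_noPAGE_hnRNPA1 libraries had 1558 and 3087 reads there. The mitochondrial site chrM:11635-11681 on the plus strand had 235 and 242 RBFOX2 reads and 767 and 760 hnRNPA1 reads without PAGE. In noUV_noPAGE libraries it had 167 and 374 RBFOX2 reads, 651 and 500 hnRNPA1 reads, 437 and 863 hnRNP C reads and 174 and 345 hnRNPI reads. Peaks of all 4 proteins without crosslinking and without the gel thus lay over this site. At chr12:132414053-132414188 on the plus strand RBFOX2 had 225 and 247 reads and hnRNPA1 234 and 268, and noUV_RBFOX2 libraries had 10 reads in replicate 1 and no peak in replicate 2. The interval chr19:34882751-34882845 on the plus strand appeared under 2 gene numbers, with an end that differed by 1 nt, and counts as 2 of the 10 strongest sites but as 1 place.

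Among the strongest sites with no noUV peak of either protein, chr1:93297921-93298013 and chr19:10792227-10792283, both on the plus strand, had peaks in all RecJ and lowRNase libraries of both proteins. The first had 117 and 173 reads for RBFOX2 and 210 and 125 for hnRNPA1 without PAGE, and 369 and 254 against 123 and 149 in the lowRNase libraries. The second had 106 and 103 reads for RBFOX2 and 128 and 150 for hnRNPA1 without PAGE. No noUV library of any of the 4 proteins had a peak over either site.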

How the data were processed

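The deposited files are 68 peak lists, 1 per library, with 8 columns and no header line. The submitters' processing notes name STAR 2.7.3a, UMI-tools 1.0.1, bcl2fastq and hg19 without giving their roles, and the lists' names give CLIPper as the caller. Each p-value is the deposited value of a peak, and the largest was 0.00755. The last number of a peak's deposited name, at least 4 in every list, was taken as its number of reads. The sources do not say what it is, it is unscaled and no depth is given, so no counting interval was computed. Peaks were listed separately for each library.

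Peaks overlapped when they shared 1 nt on a strand. Where several peaks of a library overlapped a site, the highest read number was used, and for distances the nearest centre. Classes of sites were made from the same 8 libraries. The percent of sites overlapped was computed per library, and conditions were compared over libraries by exact permutation tests, with Benjamini-Hochberg adjustment over 6 tests, in Python 3.11.15 with NumPy 2.4.6, pandas 2.3.3 and SciPy 1.17.1. The tests were run on simulated data first. The sites and lists were chosen with earlier results of these data known.

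Named genes and sites were the 10 genes with the most clusters, the 10 sites (1 per gene) with the highest lower limit of reads over the 4 defining libraries, and the 5 found in the most noUV libraries. No gene identifier (0) matched a symbol in the table at hand, which is for another build, so lists of genes by name were not used. RNA-seq of the study was not analysed here. Same-numbered replicates did not deviate together: over sites, the correlation of replicate differences between crosslinked and noUV groups was 0.0341, 0.0953, -0.0179 and -0.0218.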

Additional observations from a re-analysis of the deposited data

Results flagged for a closer look

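When crosslinking was left out, the percent of shared sites overlapped moved in opposite directions for hnRNP C and for other proteins. The crosslinked libraries compared were those of lowRNase with PAGE and of RecJ without it. They did not overlap with the noUV libraries for the proteins compared. With PAGE it was higher for hnRNP C (15.7% without and 6.16% with crosslinking) and lower for hnRNPA1, RBFOX2 and hnRNPI (1.85% and 12.6%). The change for hnRNP C exceeded that for hnRNPA1 by 35.3 percentage points, that for hnRNPI by 20.3 and that for RBFOX2 by 72.7. These gaps use the crosslinked hnRNP C mean of 6.16%, which includes the library with few peaks, and would be smaller without that library. Without PAGE hnRNP C had 14.9% without and 7.35% with crosslinking, and its change exceeded that for hnRNPA1 by 32.5 points and that for RBFOX2 by 54.0. For hnRNPI without PAGE the libraries did not separate, with 6.25% and 10.7% without crosslinking and 6.87% and 6.46% with it. The higher hnRNP C values were not confined to the shared sites. With PAGE, RBFOX2-only sites had 11.2% without and 0.883% with crosslinking, and all reproducible RBFOX2 sites 22.5% and 6.41%. These crosslinked means also include the library with few peaks, and the other replicate had 1.76% and 11.8%. Without PAGE, RBFOX2-only sites had 10.9% without and 2.82% with crosslinking. RBFOX2-only sites were chosen to have no hnRNPA1 peak, and there hnRNPA1 was also higher without crosslinking. With PAGE it was 6.33% without and 5.19% with crosslinking, and without PAGE 12.3% and 6.52%. The libraries separated in both. hnRNPI at these sites was lower with PAGE (1.76% and 5.23%) and higher without PAGE (8.57% and 3.64%). A higher value without crosslinking was thus not particular to hnRNP C at RBFOX2-only sites. These differences between proteins were not tested. The rule barred crosslinked hnRNP C peaks and required crosslinked hnRNPA1 and RBFOX2 peaks at the shared sites. There the crosslinked hnRNP C value with PAGE includes the library with few peaks (0.161%, against 12.2% in the other replicate). Without that library the noUV values of 15.2% and 16.2% were still above the crosslinked one, which is then a single lowRNase library. The crosslinked hnRNPc_50k_mediumRNase libraries, with the gel and more RNase, overlapped 9.93% and 17.8% of the shared sites. The noUV values lay between these.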

How the results depend on the processing

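The number of shared sites was 4933 when the overlap had to cover 50% of the shorter peak, 4491 with peaks of p below 1e-05, 6202 with replicate 2 peaks as the sites and 5262 with no hnRNP C or hnRNPI peak within 50 nt. The 6 tested differences kept their direction under every alternative run. The median hnRNPA1 centre distance of 20.5 nt (mean of both replicates) became 16 nt with the 50% overlap, which admits closer peaks by construction, and 19.5 nt with the centre of the inner interval in the deposited lists. Leaving out 1 library gave -45.2 to -43.7 and -36.8 to -34.6 points for crosslink omission with and without PAGE, 70.5 to 71.4 and 61.5 to 66.0 for the proteins in RecJ and lowRNase libraries, and 18.1 to 23.9 and -36.0 to -32.4 for the site classes in noUV libraries. Libraries were also paired by replicate number. For the protein differences hnRNPA1 was paired with hnRNP C and RBFOX2 with hnRNPI, a choice that the replicate number does not set. The protein differences stayed 70.9 and 64.5 points and those for crosslinking -44.5 and -35.7. Each had an exact sign-flip permutation p of 0.125, the smallest that 4 pairs allow. It is above 0.05 by construction. The site classes were already paired by library. Alternatives chosen after seeing the data were the libraries of 1 protein alone, with 4 libraries and an exact p of 0.125 at best. They gave 2.78 and -45.1 points for RBFOX2 and 39.5 and -23.3 for hnRNPA1, against RBFOX2-only sites and sites of all 4 proteins. Sites of 20 to 49 reads alone gave 21.2 and -19.98 points (exact p = 0.0312 and 0.00781). Depth is unknown, so an absent peak may be a missed one.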
